A study of Mus musculus with 12 samples.

Results

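Keratins are the intermediate filament proteins of epithelial cells. Here the keratin gene family was taken as every gene of the deposited table whose symbol is Krt followed by a number and, at most, 1 letter, which gave 48 of 34347 genes. Keratin pseudogenes and the keratin-associated proteins of hair were not included. The family was followed through early tooth development in wild-type (WT) C57BL/6 mouse embryos, across 4 groups of 3 libraries each: E13.5 dental epithelium, E13.5 dental mesenchyme, E11.5 dental epithelium and E11.5 dental mesenchyme. Epithelium and mesenchyme were parted with dispase, incisors and molars were both collected, and no treatment was given. At E13.5 the tissue came from dissected tooth germs and at E11.5 from the mandible, so stage and dissected piece cannot be told apart. The labels call the libraries biological replicates but also speak of pooled RNA, and the methods give a total of embryos but not the embryos behind each library.

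A keratin filament is built from heterodimers of 1 type I (acidic) and 1 type II (basic) keratin, and most keratins are expressed in fixed pairs. Krt8 and Krt18 form the pair of simple, single-layered epithelia and of early embryonic epithelium. Krt5 with Krt14 or Krt15 marks the basal layer of stratified epithelia, Krt6 with Krt16 or Krt17 is typical of activated epithelium and of skin appendages, and Krt1 with Krt10 or Krt4 with Krt13 replaces the basal pair in the suprabasal layers of skin and of mucosa. The tooth forms from an oral epithelium that thickens into a placode and then grows into the mesenchyme as a bud, and the basal keratins Krt5 and Krt14 are classic markers of this epithelium.

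The 48 genes comprised 25 type I and 23 type II keratins. The files place 24 of the type I genes in 1 cluster on chromosome 11 (mm10, 99232761 to 100269871), and all 23 type II genes on chromosome 15 (101347444 to 102004482). Krt18 is the type I exception and lies on chromosome 15, at 102028180 to 102032027. By textbook role they were grouped into 5 simple, 3 basal, 4 activated, 12 suprabasal, 8 inner root sheath and companion layer, 11 hair shaft and 5 other keratins. In 31 of the 48 genes the counts were high enough for at least 1 test, and 17 entered no test.

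Levels are in FPKM (fragments per kilobase of transcript, scaled to library size), which allows comparison between genes. A total of 16 keratins reached a group mean of 1 FPKM in at least 1 group, and all 16 did so in E13.5 epithelium, against 9 in the mesenchyme of that stage. At E11.5 the epithelium had 9 and the mesenchyme had 7 such keratins. The remaining 32 keratins stayed under 1 FPKM in every group mean, and 31 of them in every library. Among these 32, the 11 hair shaft keratins had their highest library values between 0.0184 and 0.247 FPKM (Krt87), the 7 low inner root sheath and companion layer keratins between 0.00901 and 0.312 FPKM (Krt72), and the 8 low suprabasal keratins between 0.0328 and 1.53 FPKM (Krt80). Krt20, a keratin of intestinal and Merkel cells, did not exceed 0.425 FPKM. For 21 of the 32 the highest group mean was that of E13.5 epithelium. Some of these means rest on few counts, such as 3 for Krt39 and 4 for Krt32. No share over all low genes is given, so the 21 were not read as a trait of the family.

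The summed keratin FPKM was 2165, 3219 and 629 in the 3 E13.5 epithelium libraries and 241, 245 and 167 in E11.5 epithelium. In mesenchyme it was 114, 76.6 and 84.4 at E13.5 and 19.9, 23.2 and 25.8 at E11.5. Keratins were thus most abundant in E13.5 epithelium, where they took 0.750%, 1.10% and 0.232% of all FPKM, and replicate 3 held far less than the other two libraries. This library also had 31.4% of the non-keratin epithelial marker sum of replicates 1 and 2.

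Several facts of the libraries touch every result below. Total estimated counts were 70134554 to 79349382 per library. The 12 non-keratin epithelial markers, led by Epcam, Cldn4, Cdh1 and Cldn6, were all called higher in epithelium at both stages, with sums of 117 to 423 FPKM in epithelium against 22.7 to 24.4 FPKM in mesenchyme at E13.5, and of 145 to 161 FPKM against 14.8 to 16.7 FPKM for the same tissues at E11.5. The 20 mesenchyme markers, led by Col3a1, Col1a1, Twist1 and Col1a2, summed to 365 to 1379 FPKM in E13.5 epithelium against 1707 to 2112 in E13.5 mesenchyme, and to 399 to 523 FPKM in epithelium against 584 to 741 FPKM in mesenchyme at E11.5. Of these 20, edgeR called 0 lower in epithelium at either stage, although 12 were lower at E13.5 and 11 at E11.5 at an unadjusted p under 0.05. DESeq2 called 6 lower at E13.5 and 0 at E11.5, against 3.09% and 0.917% of all genes. The highest of the E13.5 epithelium sums was that of replicate 3. Of 12 neuron markers, 9 were called higher in epithelium than in mesenchyme at E11.5, and 5 were called lower in E13.5 than in E11.5 epithelium (Elavl3, Elavl4, Nhlh1, Pou4f1 and Tubb3, named after their values were seen). Of all genes, edgeR called 1.59% higher and 0.17% lower in epithelium at E13.5, and 3.67% and 0.493% at E11.5. It called 1.29% of all genes lower in E13.5 than in E11.5 epithelium. In such bulk samples fewer cells of a type and less RNA per cell cannot be told apart, and the part of the cell mixture in each keratin result was not tested.

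**Figure D1:**
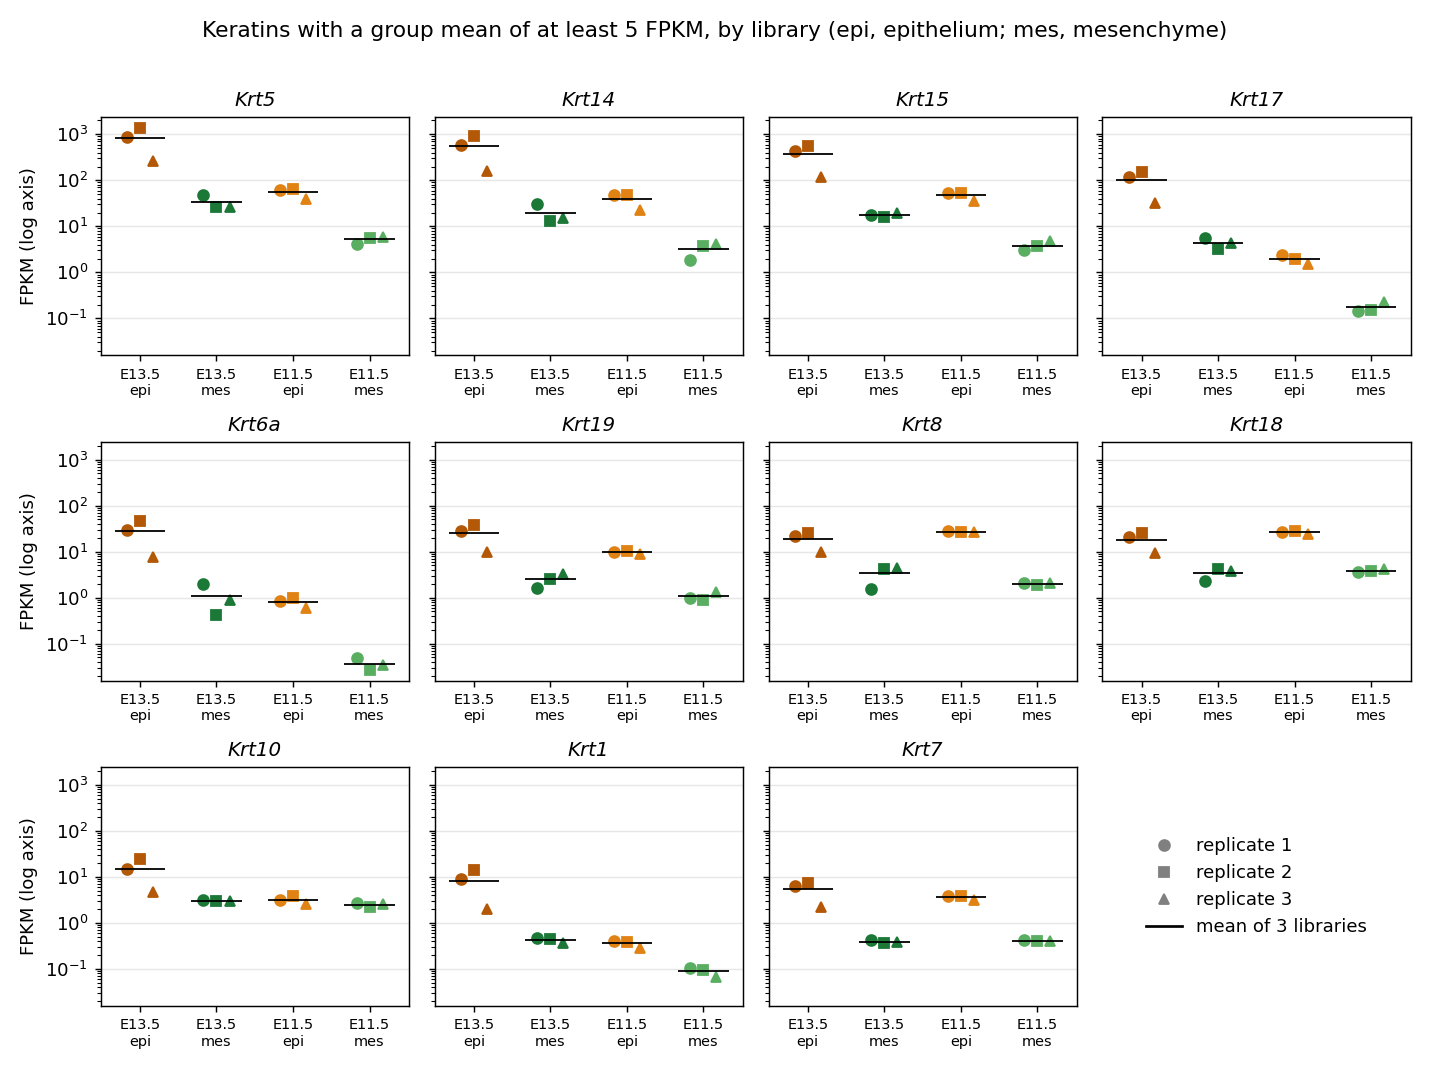
FPKM on a log axis of the 11 keratins with a group mean of at least 5 FPKM, with 1 marker per library and a line at the mean of 3 libraries for each of the 4 groups. Krt5, Krt14, Krt15, Krt17 and Krt6a lie far above their E11.5 values in every E13.5 epithelium library, whereas Krt8 lies below them.

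Promoter windows are shown for members whose start in RefSeq (GRCm38.p6, the same primary assembly as mm10) lay within 100 bases of the start in the deposited table. The members shown were called between stages in epithelium or in mesenchyme (Krt13 in mesenchyme only), except Krt18, which was called in neither. The letters run 5′ to 3′ on the gene strand from -40 to -11 relative to the RefSeq start, and capitals mark the motif ATAA, which is part of the TATA box.
Krt5, basal, chr15:101712916-101712945, minus strand: cttctaaggggATAAaaggggacctcaaat
Krt10, suprabasal, chr11:99389375-99389404, minus strand: acgccctctcagtatATAAaggctcggcac
Krt13, suprabasal, chr11:100121577-100121606, minus strand: gtggaggacgcATAAaaggcatgcacggca
Krt75, companion layer, chr15:101573915-101573944, minus strand: ggaggcccATAAaagtctaaggacctgcac
Krt18, simple, chr15:102028176-102028205, plus strand: ccctacctcctcccgcggcgatATAAcaac
Krt77, suprabasal, chr15:101869716-101869745, minus strand: caggtgtgtgtatatatagggactgagcca
Of 33 keratins with an entry, 30 met the distance limit, and 23 of these 30 (76.7%) held ATAA on the gene strand in this window, and the same 76.7% when both strands were searched. Among all 32851 promoters of the table the share was 9.2% on the gene strand and 14.4% on either strand. Krt77 holds no ATAA in the window but has the letters tatatata there, so the lack of ATAA was not read as the lack of a TATA box. Krt23 and Krt79 are not shown, although both were called in epithelium and met the distance limit. Krt23 held ATAA at -31, and Krt79 held no ATAA in the window. The motif was present in Krt5, which was called between stages, and in Krt18, which was not. In Krt18 it began at -18, against -29 in Krt5. The RefSeq start of Krt18 lies 36 bases past the deposited start, so most of its window falls within the gene as deposited. Its ATAA was therefore not taken as part of a TATA box.

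The first comparison asked which keratins differed between E13.5 and E11.5 dental epithelium. A gene was called where the edgeR quasi-likelihood test over all genes gave a Benjamini-Hochberg adjusted p under 0.05 and the log2 fold change was at least 1 in size. Of 29 keratins tested, 15 were called higher and 0 lower at E13.5, against 4.27% of all genes tested called higher and 1.29% called lower. In this and the next 3 comparisons, no keratin was called lower by DESeq2 or was lower in edgeR's test at an unadjusted p under 0.05. The 15 were all 3 basal keratins, all 4 activated keratins, 6 of 9 tested suprabasal keratins, Krt75 and Krt23. Of the 5 simple keratins edgeR called 0, 1 was higher at an unadjusted p under 0.05 (Krt19), and DESeq2 called that one (log2 fold change 1.35, adjusted p = 0.0133). The median log2 fold change over the 29 was 2.72, against 0.05 over all genes, and 19 had every E13.5 library above every E11.5 library, against 18.2% of all genes. A keratin that passed the filter on low counts only through E13.5 had to be high there, so these figures describe the tested keratins and not the family.

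The basal keratins were the most abundant ones. Krt5, the type II basal keratin, had 887, 1390 and 267 FPKM in E13.5 epithelium and 62.9, 64.4 and 40.1 FPKM in E11.5 epithelium. Krt14, its usual type I partner, had 575, 920 and 162 FPKM in E13.5 epithelium and 46.9, 48.2 and 23.0 FPKM in E11.5 epithelium. Krt15, the alternative type I partner in basal cells, had 433, 552 and 116 FPKM in E13.5 epithelium and 53.0, 53.9 and 34.9 FPKM in E11.5 epithelium. For all 3 genes every E13.5 library lay above every E11.5 library, and replicate 3 was the lowest library of its group at both stages. Krt5 rose by 3.92 ± 0.58 on the log2 scale (± standard error, n = 3 libraries per group, adjusted p = 0.0161 in edgeR's test), Krt14 by 3.80 ± 0.63 (adjusted p = 0.0211) and Krt15 by 2.95 ± 0.53 (adjusted p = 0.0253).

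All 4 activated keratins were low at E11.5 and rose. Krt17, a type I keratin of placodes and skin appendages, had 121, 149 and 31.9 FPKM in E13.5 epithelium and 2.36, 1.94 and 1.54 FPKM in E11.5 epithelium. Krt6a, a type II partner of Krt17, had 28.8, 45.8 and 7.63 FPKM in E13.5 epithelium and 0.827, 0.965 and 0.600 FPKM in E11.5 epithelium. The groups did not overlap for either gene, and even the lowest E13.5 library had 16.4 times the E11.5 mean of Krt17 and 9.56 times that of Krt6a. Krt17 rose by a log2 fold change of 5.68 ± 0.60 (adjusted p = 0.00777) and Krt6a by 5.09 ± 0.66 (adjusted p = 0.0122). Krt16 averaged 2.30 ± 1.51 FPKM in E13.5 epithelium and 0.0779 ± 0.0675 FPKM in E11.5 epithelium (SD, n = 3), with a log2 fold change of 4.81 ± 1.09. Krt6b averaged 1.94 ± 1.32 FPKM in E13.5 epithelium and was near 0 in E11.5 epithelium, with 9 counts in all, and both genes were called. Krt6a and Krt6b are close copies and lie 9622 bases apart, and Krt14, Krt16 and Krt17 are similar in sequence, so the assignment of reads within these sets is uncertain.

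The simple keratins did not follow. Krt8, the type II simple keratin, had 22.2, 24.9 and 9.68 FPKM in E13.5 epithelium and 28.3, 26.7 and 26.5 FPKM in E11.5 epithelium. Krt18, its type I partner, had 20.4, 25.0 and 9.30 FPKM in E13.5 epithelium and 27.2, 28.6 and 24.5 FPKM in E11.5 epithelium. Krt8 was thus lower in every E13.5 library, while the 2 groups overlapped for Krt18. The log2 fold changes were -0.53 ± 0.31 for Krt8 (adjusted p = 0.339) and -0.56 ± 0.32 for Krt18 (adjusted p = 0.324), and neither was called. Krt19, a type I keratin without a fixed type II partner, had 28.0, 38.2 and 9.68 FPKM in E13.5 epithelium and 9.87, 10.2 and 8.86 FPKM in E11.5 epithelium, and Krt7, a type II keratin of ducts and glands, had 6.34, 7.47 and 2.18 FPKM in E13.5 epithelium and 3.80, 3.74 and 3.15 FPKM in E11.5 epithelium. Both overlapped between stages because of E13.5 replicate 3, with log2 fold changes of 1.38 ± 0.43 for Krt19 (adjusted p = 0.0935) and 0.57 ± 0.40 for Krt7 (adjusted p = 0.412). Krt20 gave -0.41 ± 0.56.

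Of the 12 suprabasal keratins 9 were tested, of which 6 rose and Krt13, Krt24 and Krt9 were not called. Krt10, the type I keratin of the spinous layer of skin, had 14.5, 24.8 and 4.77 FPKM in E13.5 epithelium and 3.18, 3.84 and 2.55 FPKM in E11.5 epithelium. Krt1, its type II partner, had 8.74, 13.8 and 1.98 FPKM in E13.5 epithelium and 0.393, 0.391 and 0.290 FPKM in E11.5 epithelium, and its E13.5 mean was 22.8 times its E11.5 mean. The stages did not overlap for either gene. Krt1 rose by a log2 fold change of 4.49 ± 0.68 (adjusted p = 0.0171), and Krt10 by 2.19 ± 0.53 with an adjusted p of 0.0498, at the edge of the threshold. Krt4, the type II keratin of internal stratified epithelia, averaged 4.76 ± 2.80 FPKM in E13.5 epithelium and had 36 counts in all in E11.5 epithelium (log2 fold change 6.23 ± 1.17), and it was called. Its partner Krt13 averaged 2.11 ± 1.69 FPKM in E13.5 epithelium and 0.0478 ± 0.0827 FPKM in E11.5 epithelium, with every E13.5 library higher, but was not called (5.35 ± 1.49, adjusted p = 0.0710). Among members under 1 FPKM in every group mean, Krt77 (6.12 ± 1.36), Krt79 (4.21 ± 0.85) and Krt80 (3.14 ± 0.49) were called higher as well. Krt24 averaged 0.570 ± 0.221 FPKM in E13.5 epithelium and 0.189 ± 0.144 FPKM in E11.5 epithelium (SD, n = 3), and Krt9 averaged 0.122 ± 0.110 FPKM in E13.5 epithelium and 0.205 ± 0.0953 FPKM in E11.5 epithelium.

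Beyond these classes, Krt75, a type II keratin of the hair companion layer, averaged 1.57 ± 0.92 FPKM in E13.5 epithelium and rose by 2.72 ± 0.49 on the log2 scale. Krt23, a type I keratin, had 0.954, 0.847 and 0.255 FPKM in E13.5 epithelium and was at 0 in all 3 E11.5 epithelium libraries. Set against a floor of 3 counts over the group, it was at least 93.8-fold higher at E13.5.

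These calls depended on single libraries. The count of 15 became 19 without E13.5 epithelium replicate 3, where 6.89% of all genes were called higher. It became 1 without E13.5 epithelium replicate 1 (0.287%), and 0 without E11.5 epithelium replicate 1 (0.196%) or 2 (0.187%). The share of all genes called higher thus fell as well, from 4.27%. Without E11.5 epithelium replicate 1 or 2, 21 and 19 keratins were higher at an unadjusted p under 0.05. These 2 E11.5 libraries were very alike, and whether they are independent cannot be told. No called keratin changed sign in any of these fits. Krt17 was called in 4 of the 6 fits that left out a library, with log2 fold changes of 5.21 to 6.10.

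**Figure D2:**
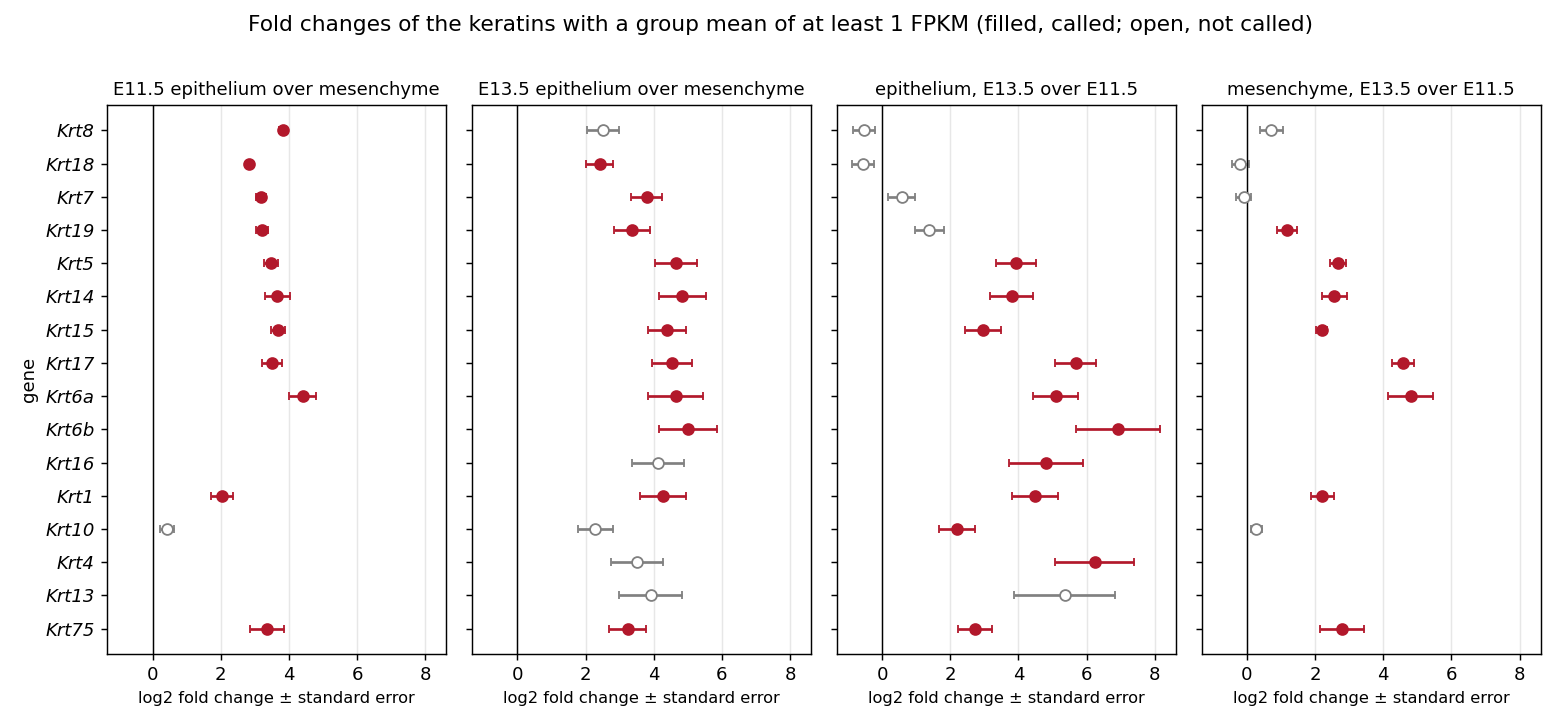
Log2 fold changes with standard errors of the 16 keratins with a group mean of at least 1 FPKM in the 4 comparisons, filled where called and open where not, with n = 3 libraries per group. A keratin has no marker where it was not tested or was at 0 in 1 of the groups, and in the epithelium panel the 4 simple keratins at the top are open while Krt5, Krt14, Krt15 and Krt17 are filled.

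Because the epithelial markers also differed between libraries, each keratin was expressed as a percent of the FPKM sum of the 12 non-keratin epithelial markers in the same library. This sum in E13.5 epithelium averaged 1.91 times that in E11.5 epithelium. Of its 12 members edgeR called 0 between the stages, and 8 were higher at an unadjusted p under 0.05. DESeq2 called 7 higher, against 7.39% of all genes. The members did not move alike. In edgeR's test 11 had a positive log2 fold change, while Cldn7 averaged 5.02 FPKM in E13.5 and 8.85 FPKM in E11.5 epithelium. Values on this scale thus depend on the markers summed. Krt5 was 277%, 329% and 229% of the marker sum in E13.5 epithelium and 43.3%, 44.4% and 24.9% in E11.5 epithelium. Krt17 was 37.6%, 35.3% and 27.4% in E13.5 epithelium, against 1.63%, 1.34% and 0.961% in E11.5 epithelium. Replicate 3 of E13.5 epithelium, at 23.5% of replicates 1 and 2 for Krt5 in FPKM, was at 75.7% of them on this scale. The ratio of the E13.5 to the E11.5 mean was 7.41 for Krt5, 6.71 for Krt14, 3.83 for Krt15, 25.6 for Krt17 and 16.4 for Krt6a.

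On the same scale, which depends on the markers summed, the Krt8 and Krt18 pair was lower at E13.5. Krt8 was 6.95%, 5.90% and 8.31% of the marker sum in E13.5 epithelium and 19.5%, 18.4% and 16.5% in E11.5 epithelium. Krt18 was 6.39%, 5.91% and 7.98% in E13.5 epithelium, against 18.7%, 19.8% and 15.3% in E11.5 epithelium. Neither gene overlapped between stages, and the E13.5 means were 0.389 and 0.377 times the E11.5 means for Krt8 and Krt18. Of the 16 keratins with a group mean of at least 1 FPKM, 13 were higher than at E11.5 in every E13.5 epithelium library on this scale, 2 were lower (Krt8 and Krt18) and 1 overlapped (Krt7). All 16 reached that mean in E13.5 epithelium but only 9 in E11.5 epithelium, so the others entered the set only through E13.5. The count of 13 was thus partly fixed by the choice of members, and no share of all genes is given on this scale. These ratios are a description, and no test was run on them.

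**Figure D3:**
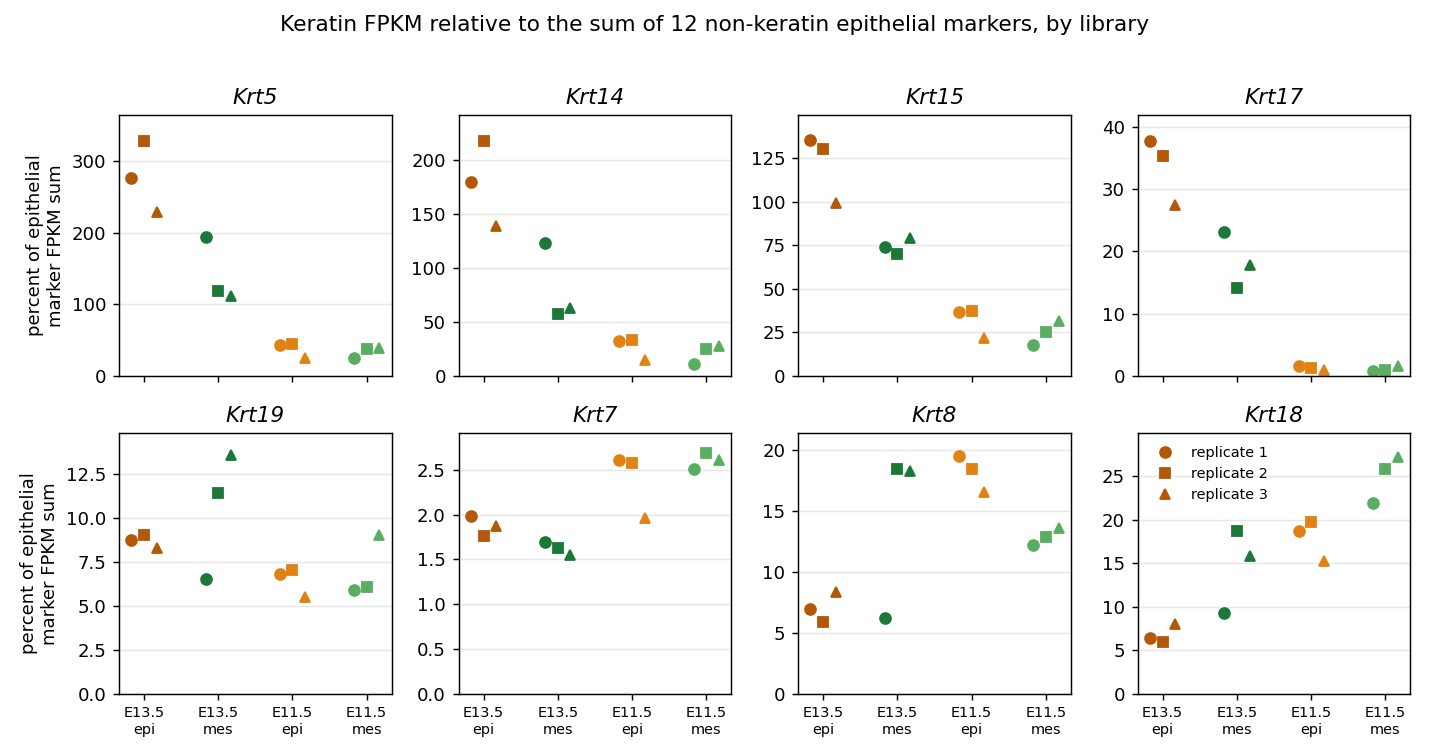
FPKM of 8 keratins as a percent of the FPKM sum of 12 non-keratin epithelial markers in the same library, with 1 marker per library. Within epithelium, Krt5 lies at 229% to 329% at E13.5 and at 24.9% to 44.4% at E11.5, whereas Krt8 lies at 5.90% to 8.31% at E13.5 and at 16.5% to 19.5% at E11.5.

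The make-up of the keratin pool also differed between the stages. Basal keratins made up 87.7 ± 1.14% of keratin FPKM in E13.5 epithelium and 64.7 ± 5.37% in E11.5 epithelium (SD, n = 3). Simple keratins made up 3.83 ± 1.002% in E13.5 epithelium and 31.7 ± 5.28% in E11.5 epithelium. Their summed level was 77.2, 95.9 and 31.0 FPKM in E13.5 epithelium and 69.6, 69.4 and 63.2 FPKM in E11.5 epithelium, with overlap, whereas basal keratins summed to 1768 ± 1164 FPKM in E13.5 epithelium and 142 ± 38.6 FPKM in E11.5 epithelium. Activated keratins made up 6.63 ± 0.43% in E13.5 epithelium and 1.301 ± 0.06% in E11.5 epithelium. Suprabasal keratins made up 1.63 ± 0.03% in E13.5 epithelium and 1.95 ± 0.18% in E11.5 epithelium. For the shares of basal, simple, activated and suprabasal keratins the libraries of the 2 stages did not overlap, replicate 3 of E13.5 epithelium included. The suprabasal share was 1.59% to 1.65% in E13.5 epithelium and 1.74% to 2.09% in E11.5 epithelium. The ratio of Krt5 to Krt8 FPKM was 39.9, 55.7 and 27.6 in E13.5 epithelium, against 2.22, 2.42 and 1.51 in E11.5 epithelium.

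**Figure D4:**
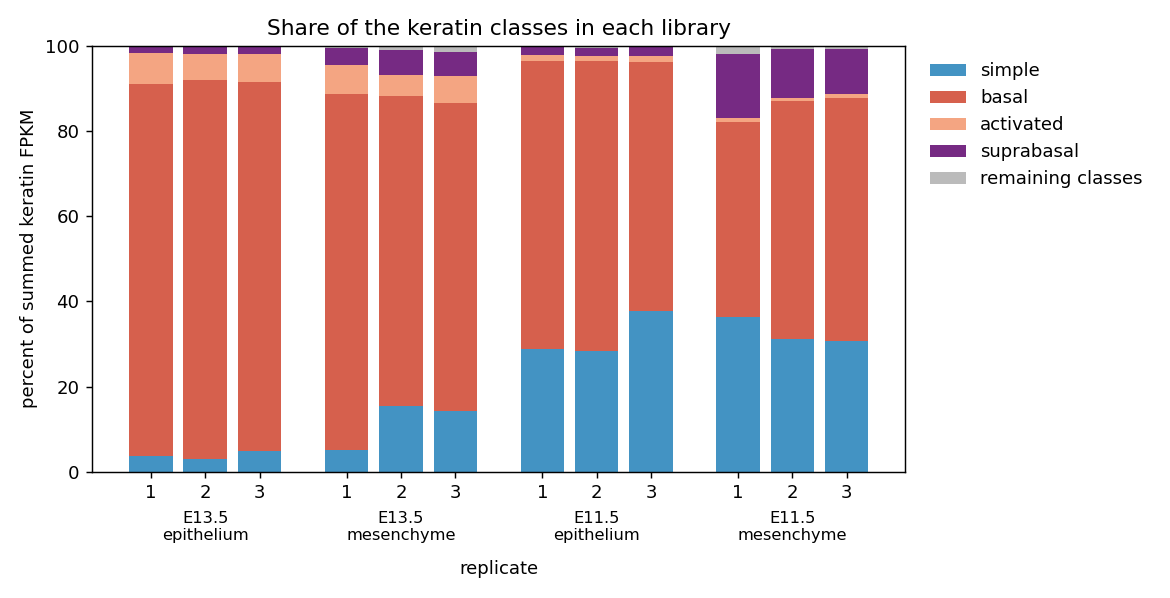
Share of each keratin class in the summed keratin FPKM of the 12 libraries, as stacked bars that add up to 100 percent. Simple keratins take 2.98% to 4.93% in E13.5 epithelium and 28.3% to 37.8% in E11.5 epithelium.

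The order of the keratins by level differed between stages. In E13.5 epithelium the order by mean FPKM was Krt5, Krt14, Krt15, Krt17, Krt6a, Krt19, Krt8, Krt18, Krt10, Krt1, Krt7, Krt4, Krt16, Krt13, Krt6b and Krt75, and the library ranges of all neighbours in this order overlapped. Within a library the leading order was steady, since Krt5 lay above Krt14, Krt14 above Krt15, Krt15 above Krt17 and Krt17 above Krt6a in all 3. In E11.5 epithelium the order was Krt5, Krt15, Krt14, Krt8, Krt18, Krt19, Krt7, Krt10 and Krt17, where the ranges of Krt18 and Krt19, of Krt19 and Krt7 and of Krt10 and Krt17 did not overlap and those of the other neighbours did. Krt17 was the fourth at E13.5 and the ninth at E11.5.

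Type I and type II partners were compared as FPKM ratios within each library. The ratio of Krt18 to Krt8 was 0.919, 1.002 and 0.961 in E13.5 epithelium, against 0.961, 1.07 and 0.924 in E11.5 epithelium, so the simple pair stayed close to 1 to 1 at both stages. The ratio of Krt14 to Krt5 was 0.648, 0.662 and 0.607 in E13.5 epithelium, against 0.746, 0.749 and 0.576 in E11.5 epithelium, with overlapping ranges. The ratio of Krt15 to Krt5 was 0.488, 0.397 and 0.433 in E13.5 epithelium, against 0.842, 0.837 and 0.871 in E11.5 epithelium, without overlap. Krt15 therefore had a smaller share of the type I basal partners at E13.5. The ratio of Krt10 to Krt1 was 1.95 ± 0.40 in E13.5 epithelium and 8.90 ± 0.88 in E11.5 epithelium (SD, n = 3), also without overlap. Over the whole family, type I over type II FPKM was 1.24, 1.15 and 1.15 in E13.5 epithelium, against 1.49, 1.53 and 1.35 in E11.5 epithelium.

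**Figure D5:**
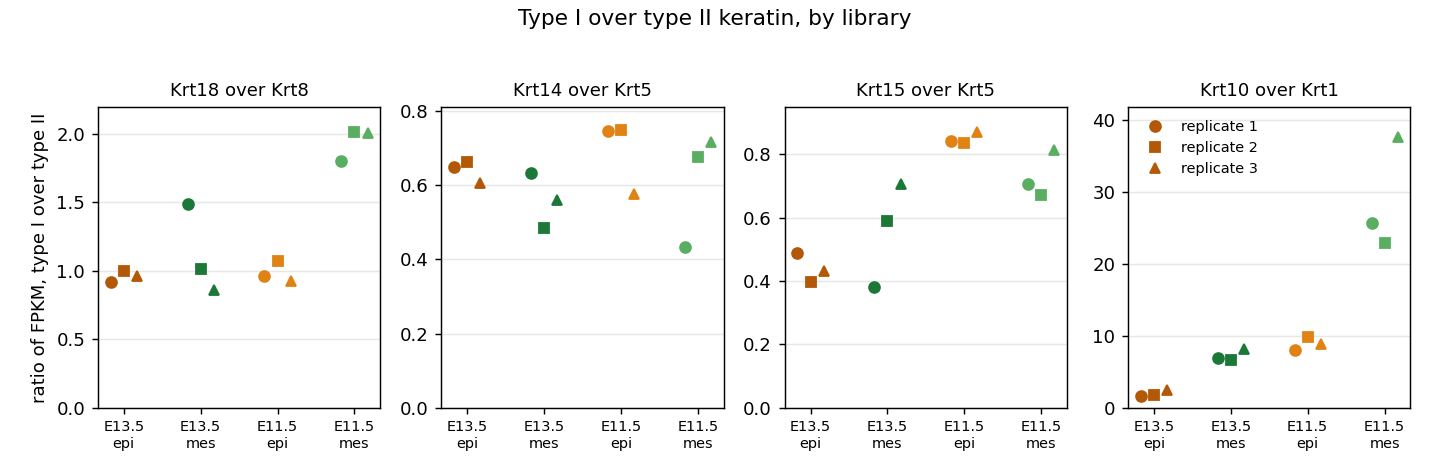
FPKM ratio of a type I to a type II keratin in each library for 4 pairs. In epithelium Krt18 over Krt8 lies between 0.919 and 1.07 at both stages, while Krt15 over Krt5 lies at 0.397 to 0.488 at E13.5 and at 0.837 to 0.871 at E11.5.

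The second question was which keratins differed between the tissues at E13.5. Of 28 keratins tested, 11 were called higher and 0 lower in epithelium, against 1.59% of all genes called higher and 0.17% called lower. The 11 were Krt5, Krt14 and Krt15, the activated keratins Krt17, Krt6a and Krt6b, the simple keratins Krt7, Krt18 and Krt19, and Krt1 and Krt75. The median log2 fold change over the 28 was 3.45, against -0.01 over all genes. Here too a keratin could pass the filter on low counts through epithelium alone, so these figures describe the tested keratins and not the family. Krt5 had 47.5, 27.0 and 27.0 FPKM and Krt14 30.01, 13.03 and 15.1 FPKM in E13.5 mesenchyme, far below each epithelium library, with log2 fold changes of 4.66 ± 0.62 and 4.84 ± 0.69 (both with an adjusted p of 0.0347). Krt15 had 18.1, 15.9 and 19.1 FPKM (log2 fold change 4.39 ± 0.55) and Krt17 5.62, 3.22 and 4.29 FPKM (4.53 ± 0.58) in E13.5 mesenchyme. Krt6a had 2.01, 0.411 and 0.884 FPKM, Krt19 1.59, 2.59 and 3.26 FPKM and Krt7 0.414, 0.371 and 0.373 FPKM there, each below every epithelium library.

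Krt10 and the simple pair stood closer between the tissues at E13.5 than the basal keratins did. Krt8 had 1.53, 4.18 and 4.40 FPKM in E13.5 mesenchyme, and its log2 fold change of 2.51 ± 0.48 was not called (adjusted p = 0.0551) although every epithelium library was higher. Krt18 had 2.28, 4.25 and 3.79 FPKM in E13.5 mesenchyme and was called with 2.42 ± 0.40 (adjusted p = 0.0430). Mesenchyme replicate 1 was the lowest library for both, and the highest for Krt5, Krt14 and Krt17. Krt16 (4.13 ± 0.77, adjusted p = 0.0504), Krt10 (2.29 ± 0.52, adjusted p = 0.0777, with 3.16, 2.95 and 2.97 FPKM in E13.5 mesenchyme), Krt4 (3.52 ± 0.76) and Krt13 (3.91 ± 0.93) were higher in every epithelium library without being called. Krt77 was at 0 in all E13.5 mesenchyme libraries and at least 127-fold higher in E13.5 epithelium, and was not called (adjusted p = 0.0588). The count of 11 became 24 without epithelium replicate 3, where 6.34% of all genes were called higher, and 5 without epithelium replicate 2 (0.472%). The 5 were Krt5, Krt14, Krt15, Krt17 and Krt7, named after their values were seen. The count was 0 in edgeR's test without epithelium replicate 1 or without any 1 of the 3 mesenchyme libraries. In these 4 fits edgeR called 0 genes of any kind (0 of 21406 without mesenchyme replicate 3). There 22 to 24 keratins were higher at an unadjusted p under 0.05. DESeq2 called 20 keratins higher on all 6 libraries, against 4.8% of all genes.

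At E11.5 the same question gave a more even picture. Of 18 keratins tested, 11 were called higher and 0 lower in epithelium, against 3.67% of all genes called higher and 0.493% called lower, and 14 had no overlap, against 12.6% of all genes. The median log2 fold change over the 18 was 3.11, against 0.01 over all genes. As at E13.5, a keratin could pass the filter on low counts through epithelium alone, so these figures describe only the tested keratins. The 11 were Krt5, Krt14, Krt15, Krt17, Krt6a, Krt7, Krt8, Krt18, Krt19, Krt1 and Krt75. Krt8 had 2.03, 1.904 and 2.04 FPKM in E11.5 mesenchyme, and its log2 fold change of 3.82 ± 0.11 had the smallest adjusted p of the 18 (1.74e-05). Krt18 had 3.66, 3.83 and 4.10 FPKM in E11.5 mesenchyme (2.84 ± 0.11), Krt5 4.25, 5.54 and 5.83 FPKM (3.48 ± 0.20) and Krt14 1.84, 3.73 and 4.18 FPKM (3.66 ± 0.37). Krt15 had 3.002, 3.72 and 4.74 FPKM, Krt19 0.987, 0.903 and 1.35 FPKM, and Krt7 0.419, 0.399 and 0.393 FPKM in E11.5 mesenchyme. Krt17 had 0.142, 0.149 and 0.232 FPKM and Krt6a 0.0484, 0.0270 and 0.0344 FPKM there. None of these 9 keratins overlapped between the tissues. Leaving out single libraries gave 9 to 12 calls, and Krt8, Krt18, Krt5, Krt14, Krt15, Krt17, Krt19, Krt7 and Krt6a were called in all 6 such fits.

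Krt10 was the exception among the abundant keratins at E11.5. It had 2.63, 2.15 and 2.52 FPKM in E11.5 mesenchyme, and the tissues overlapped at epithelium replicate 3 (2.55 FPKM). Its log2 fold change of 0.43 ± 0.20 was not called (adjusted p = 0.285). Its mesenchyme mean was 76.4% of the epithelium mean, whereas the non-keratin epithelial markers stood at 10.3%, Krt5 at 9.33% and Krt8 at 7.34%. Krt1 stood at 24.5% and Krt18 at 14.4%. In E13.5 tissue the mesenchyme mean was 20.6% of the epithelium mean for Krt10, 17.8% for Krt8 and 18.9% for Krt18, against 8.28% for the epithelial markers, 3.99% for Krt5 and 3.51% for Krt14. How much of the keratin RNA in mesenchyme libraries came from epithelial cells left in them was not tested.

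The third question was how keratins differed between stages in mesenchyme. Of 23 keratins tested, 11 were called higher and 0 lower at E13.5, against 13.1% of all genes called higher and 3.09% called lower. The median log2 fold change over the 23 was 1.74, against 0.01 over all genes, and 14 had no overlap between stages, against 29.1% of all genes. A keratin could pass the filter on low counts through E13.5 mesenchyme alone, so these figures describe only the tested keratins. The 11 were Krt5 (2.68 ± 0.24), Krt14 (2.56 ± 0.37), Krt15 (2.19 ± 0.15), Krt17 (4.58 ± 0.31), Krt6a (4.81 ± 0.66), Krt1 (2.21 ± 0.34, with 0.458, 0.442 and 0.366 FPKM in E13.5 mesenchyme and 0.102, 0.0939 and 0.0669 FPKM in E11.5 mesenchyme), Krt19 (1.17 ± 0.29), Krt75, Krt80, Krt4 and Krt13. Krt4 and Krt13 were at 0 in all E11.5 mesenchyme libraries and at least 78.5-fold and 22.5-fold higher at E13.5. Krt8 (0.72 ± 0.35, adjusted p = 0.141), Krt18 (-0.19 ± 0.24), Krt7 (-0.10 ± 0.21) and Krt10 (0.28 ± 0.17) were not called. Leaving out single libraries gave 11 to 12 calls, and Krt19 was lost without E11.5 mesenchyme replicate 2 or E13.5 mesenchyme replicate 3. Of the 12 non-keratin epithelial markers edgeR called 0 between the stages in mesenchyme, 6 were higher at an unadjusted p under 0.05 and DESeq2 called 0. In the same comparison 9 of 10 skeletal muscle markers, 9 of 10 macrophage and leukocyte markers and 11 of 20 mesenchyme markers were called higher in E13.5 mesenchyme, and their part in the keratin result was not tested. This comparison shares its libraries with the tissue comparisons. As a percent of the epithelial marker sum of the same library, Krt5 was 195%, 119% and 112% in E13.5 mesenchyme and 25.5%, 37.3% and 38.7% in E11.5 mesenchyme.

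Whether the tissue difference itself changed between stages was tested with the tissue by stage term over all 12 libraries, called at an adjusted p under 0.05. None of 31 keratins was called by edgeR, against 0.0136% of all genes with a difference called larger and 0.19% called smaller at E13.5. At an unadjusted p under 0.05 there were 3 larger (Krt10, Krt1 and Krt23) and 1 smaller (Krt8) keratin differences. DESeq2 called 2 larger, Krt10 (1.88, adjusted p = 0.0367) and Krt1 (2.25, adjusted p = 0.0353). Of all genes it called 1.13% larger and 3.16% smaller. In edgeR's fit the term was 1.87 ± 0.59 for Krt10 (adjusted p = 0.186), 2.24 ± 0.73 for Krt1 (adjusted p = 0.204), 1.20 ± 0.63 for Krt5, 1.20 ± 0.76 for Krt14, -0.40 ± 0.43 for Krt18 and -1.29 ± 0.52 for Krt8 (adjusted p = 0.279). Without E13.5 epithelium replicate 3 the edgeR count was 6 of 37, all larger (Krt1, Krt5, Krt7, Krt10, Krt15 and Krt17), against 4.2% of all genes called larger and 9.21% called smaller in that fit.

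Genes that work with keratins were read from lists of the field. Of 13 tested linkers and organisers of keratin filaments, edgeR called 7 higher in E13.5 than in E11.5 epithelium (all genes 4.27%) and 7 higher in E13.5 epithelium than in E13.5 mesenchyme (1.59%). It called 10 higher in E11.5 epithelium than in E11.5 mesenchyme (3.67%) and 8 higher in E13.5 than in E11.5 mesenchyme (13.1%), and none lower. In the same order DESeq2 called 10, 11, 10 and 8 higher, against 7.39%, 4.8%, 5.2% and 13.6% of all genes. Perp, a desmosome membrane protein, had 191, 242 and 46.0 FPKM in E13.5 epithelium and 30.8, 30.4 and 36.7 FPKM in E11.5 epithelium (log2 fold change 2.28 ± 0.53). Dsp, desmoplakin, which ties keratin filaments to desmosomes, had 72.8, 109 and 22.7 FPKM in E13.5 epithelium and 10.9, 10.2 and 15.1 FPKM in E11.5 epithelium (2.49 ± 0.51). Both were called, as were Jup, plakoglobin (1.44 ± 0.34), and Pkp1, plakophilin (4.24 ± 0.58). Pkp1 had 33.8, 51.5 and 9.56 FPKM in E13.5 epithelium against 1.82, 1.72 and 1.44 FPKM in E11.5 epithelium, with no overlap.

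Of 12 transcription factors of stratified epithelium, edgeR called 3 higher in E13.5 than in E11.5 epithelium, against 4.27% of all genes. These were Ehf (4.86 ± 0.54), Grhl1 (4.30 ± 0.52) and Klf5 (2.52 ± 0.48). All 12 had a positive log2 fold change, 9 were higher at an unadjusted p under 0.05, and DESeq2 called 9 higher, against 7.39% of all genes in its fit. Trp63, which encodes p63, the master regulator of basal keratinocytes, had 31.96, 43.6 and 10.2 FPKM in E13.5 epithelium and 8.34, 7.98 and 11.4 FPKM in E11.5 epithelium. It was not called between stages by edgeR (1.62 ± 0.47, adjusted p = 0.0777). Between tissues 7 were called higher in E13.5 epithelium, Trp63 (4.10 ± 0.61), Grhl3 (4.06 ± 0.51), Grhl2, Grhl1, Tfap2a, Klf5 and Elf3, and 8 in E11.5 epithelium, Grhl3 (3.67 ± 0.15), Trp63 (3.39 ± 0.23), Grhl2, Tfap2a, Klf5, Ovol1, Ovol2 and Ehf. Of all genes, edgeR called 1.59% higher in epithelium at E13.5 and 3.67% at E11.5. DESeq2 called 11 of the 12 higher at E13.5 and 8 at E11.5, against 4.8% and 5.2% of all genes. In mesenchyme between stages 6 were called higher at E13.5, Ehf, Klf5, Grhl1, Klf4, Grhl2 and Grhl3, and Tfap2c was called lower (-1.59 ± 0.15), against 13.1% and 3.09% of all genes. Klf4, the most abundant of the list, was not called between the tissues at either stage.

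Of 15 other intermediate filament genes, 1 was called higher (Lmna, a nuclear lamin, 1.79 ± 0.35) and 1 lower (Ina, internexin of neurons, -3.01 ± 0.72) in E13.5 than in E11.5 epithelium, both named after their values were seen. Of all genes, 4.27% were called higher and 1.29% lower there. DESeq2 called 2 of the 15 higher and 3 lower, against 7.39% and 2.77% of all genes. Between the tissues at E11.5, 3 were called higher in epithelium (all genes 3.67%), the neurofilament genes Nefl (2.7 ± 0.5) and Nefm (3.02 ± 0.5) and Synm (1.26 ± 0.18). In E13.5 against E11.5 mesenchyme 6 were called higher (all genes 13.1%), Vim (1.37 ± 0.14) among them. Between the tissues at E13.5 edgeR called 0 of the 15, with 1 higher and 4 lower at an unadjusted p under 0.05. DESeq2 called 1 higher and 2 lower there, against 4.8% and 3.09% of all genes. Vim, vimentin, the filament protein of mesenchymal cells, had 70.7, 56.4 and 154.8 FPKM in E13.5 epithelium and 154.9, 177 and 193 FPKM in E13.5 mesenchyme, so epithelium replicate 3 lay just under the lowest mesenchyme library for Vim, and it was the lowest epithelium library for Krt5. At E11.5 Vim averaged 74.9 ± 21.0 FPKM in epithelium and 66.7 ± 15.2 FPKM in mesenchyme (SD, n = 3) and was not called (0.23 ± 0.22). The nuclear lamins Lmnb1 and Lmnb2 and the neural filament gene Nes were not called between tissues at either stage.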

How the data were processed

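RNA-seq of 12 libraries was analysed. Per the labels and the paper's methods, the authors sequenced poly(A) RNA as paired-end reads, trimmed them with Cutadapt 1.9 and used HISAT2 2.0.4, StringTie 1.3.4d and edgeR with mm10. The authors deposited FPKM values and whole-number estimated counts per gene in 1 table. Which tool made the counts was not given in the sources used here, and their totals exceed the read pairs, so p-values may treat the counts as more precise than they are. Counts were tested with edgeR 4.0.16 (R 4.3.3; filterByExpr, TMM, quasi-likelihood), each comparison over its own 6 libraries and the stage by tissue term over all 12, with Benjamini-Hochberg adjustment over all genes. Standard errors were derived from each log2 fold change and the square root of its F statistic. The study's methods name DESeq2, which was run as an alternative (1.42.0), as was limma 3.58.1 on log2(FPKM + 0.5). Steps were tested on simulated data. Named keratins are the 4 markers Krt5, Krt8, Krt14 and Krt18, Krt15, Krt17, all with a group mean of at least 1 FPKM and all that were called, and those at 5 FPKM or more are given by library. Of other lists, up to 4 genes with the highest mean FPKM and every called transcription factor are named. A gene of the transcription factor list is not reported here and was left out of that list's counts. Members and lists were chosen with earlier results of these data known. P-values measure the spread between these libraries, whose source animals were not given library by library. Some libraries of a group were very alike. Among genes with high counts, E11.5 epithelium replicates 1 and 2 had a median difference of 3.24%, against 19.8% for each to replicate 3. For E11.5 mesenchyme replicates 2 and 3 it was 3.94%. Whether the 3 libraries of a group are independent therefore cannot be told.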

Additional observations from a re-analysis of the deposited data

How the results depend on the processing

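The call counts of keratins between the tissues at E11.5 were within 1.5 times of 11 under every alternative run. At E13.5 the count between tissues was 11 (all genes called higher 1.59%). It was 20 with DESeq2 (4.8%), 17 with all 12 libraries in 1 fit (3.54%) and 5 with limma on log2(FPKM + 0.1) (0.572%). The count was 0 with edgeR without a filter on low counts and with limma on log2(FPKM + 0.5), filtered or not. In these fits 0 genes of any kind were called, while 28, 20 and 22 keratins were higher at an unadjusted p under 0.05. Between stages the epithelium count of 15 was 1 (Krt17) with limma on log2(FPKM + 0.5) without a filter (all genes called higher 0.368%). The mesenchyme count of 11 was 5 with limma on log2(FPKM + 0.5), filtered (6.72%) or not (4.12%). For the change of the tissue difference DESeq2 gave 2 calls instead of 0 (all genes 1.13% larger and 3.16% smaller). The causes were not tested.

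Leaving out 1 library at a time gave 9 to 12 keratin calls between the tissues at E11.5, 0 to 24 at E13.5, 0 to 19 between stages in epithelium, 11 to 12 in mesenchyme and 0 to 6 for the change of the tissue difference. Krt18 between stages in mesenchyme ran from -0.39 to 0.03, with the reversal without E13.5 mesenchyme replicate 1. The change for Krt19 ran from -0.25 to 0.56, reversed without E13.5 epithelium replicate 2 (-0.25) and without E13.5 mesenchyme replicate 1 (-0.06).

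Libraries with the same replicate number had deviations correlated at -0.126 to 0.11, and those with the same number in the library name at -0.0585 to 0.172. Not every pair exceeded 0.1 under either numbering, so neither was taken to pair samples. With the replicate number as a block, edgeR called 0 genes of any kind between tissues at E13.5 (21 keratins higher at an unadjusted p under 0.05). It called 1 keratin between stages in epithelium (Krt17), against 0.225% of all genes called higher.

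The names in brackets of 4 libraries (E13.5 epithelium replicate 3, E13.5 mesenchyme replicate 1, E11.5 epithelium replicate 3 and E11.5 mesenchyme replicate 1) carry no number. A term for these 4 gave 14 calls between tissues at E13.5 (all genes called higher 1.97%) and 15 between stages in epithelium (4.48%). After seeing the data, the number in the name was added as a term of 3 levels. Between tissues at E13.5 edgeR then called 0 genes of any kind (20 keratins higher at an unadjusted p under 0.05). Between stages in epithelium it called 1 keratin (Krt17), against 0.225% of all genes called higher. The 8 libraries with a numbered name alone gave 26 calls between tissues at E13.5, of which 25 were higher and 1 lower (all genes 7.12% and 10.4%), and 9 for the change of the tissue difference, of which 8 were larger and 1 smaller (all genes 13.6% and 16.8%). In them Krt18 between stages in mesenchyme was 0.03.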
